A study of Mus musculus with 8 samples.

Results

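The Hox genes of the mouse distal colon were examined here. Members were the gene symbols formed by Hox, a cluster letter (a to d) and a paralog number, and 39 of the 51425 gene symbols in the deposited values met that rule. They comprised 11 Hoxa, 10 Hoxb, 9 Hoxc and 9 Hoxd genes. Hoxd4 was listed on 2 rows, of which the row with the higher mean was used. The rule used gene names only and no measured value.

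RNA came from the distal colon of female mice that were 8 weeks old when tamoxifen began. Controls were Villin1-Cre-ERT littermates (4 samples). Siglec-XII animals were SIGLEC12-Villin1-Cre-ERT mice (4 samples), which carried in addition 1 floxed allele of human SIGLEC12 at the ROSA26 locus under a CAG promoter with a loxP-flanked EGFP stop cassette. Both groups received tamoxifen for 5 days, and tissue was taken 7 days after the last dose. The Villin1 promoter drives Cre in intestinal epithelium, whereas the RNA came from pieces of colon that hold other cell types too. Human SIGLEC12, EGFP and Cre transcripts were not analysed here, so the labels were not checked against the transgene. The design text counts 3 mice per condition, whereas 4 samples per group are labelled. The paper's methods describe 3 technical replicate libraries per sample, and the labels do not say whether the 4 samples came from separate animals. P values therefore measure only the spread between these samples. Values are log2(TPM + 1), where TPM, a transcript's share of the library, is corrected for transcript length. TPM keeps no record of sequencing depth, so no counting error can be given.

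Hox genes encode homeodomain transcription factors that give cells a position along the body axis. Mammals hold 4 clusters, and a gene's number (its paralog group) follows its place in the cluster: low numbers are active from anterior levels onward and high numbers only toward the tail. In the gut, group 13 genes mark the hindgut, which forms the colon and rectum, and several Hox genes stay on in adult colon epithelium. Proteins of the TALE class (Pbx, Meis and Pknox) bind DNA together with Hox proteins, and Cdx proteins act upstream of Hox genes.

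Some libraries stood apart in genes outside the Hox clusters. Genes of squamous epithelium, which mark the stratified lining of the anal canal and not the glandular colon, differed widely. The summed TPM of 6 such markers (Krt5, Krt14, Krt13, Krt4, Trp63 and Krtdap) was 15620 in control sample 1 and 8670 in control sample 4, and ranged from 753 to 4847 in the other 6 samples. All 6 markers were at a TPM of 1 or more in every sample. Krtdap did not follow the order of the sum: control sample 1 was at 8.04 log2(TPM + 1), below control sample 2 at 8.32, and control sample 4 was highest at 10.0. Each library's median gene, relative to the mean of the 8 samples, lay, on the log2 scale, at -0.02, 0.18, 0.10 and 0.17 in control samples 1 to 4 and at 0.12, 0.06, -0.23 and -0.37 in Siglec-XII samples 1 to 4. Markers of the labelled tissue were present, with all 12 colon epithelium genes (among them Epcam, Krt20 and Car1) at a TPM of 1 or more in all 8 samples.

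A gene was called on at a TPM of 1 or more. By that measure 15 Hox genes were on in all 8 samples, 7 were on in some samples, 15 were above 0 but under the threshold in every sample, and 2 (Hoxc12 and Hoxd1) were listed at 0 throughout. Between 16 and 20 members were on in a sample. The constant set held Hoxa3, Hoxa5, Hoxa7, Hoxa9, Hoxa10, Hoxa11 and Hoxa13 from the a cluster, Hoxb6, Hoxb9 and Hoxb13 from the b cluster, and Hoxd9, Hoxd10, Hoxd11, Hoxd12 and Hoxd13 from the d cluster. No Hoxc gene was on in any sample. Of the 12 members in groups 10 to 13, 8 were on in every sample and the other 4 were the Hoxc genes of those groups. Of the 27 members in groups 1 to 9, 7 were on in every sample. The clusters therefore differed in extent. The d cluster was on from group 9 to group 13 without a gap. The a cluster was on back to group 3, except that Hoxa4 was under the threshold in every sample (TPM from 0.256 to 0.632). Hoxa6 was under it in control sample 1 (0.756 TPM). In the b cluster 3 members were on in every sample and 5 in some.

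**Figure D1:**
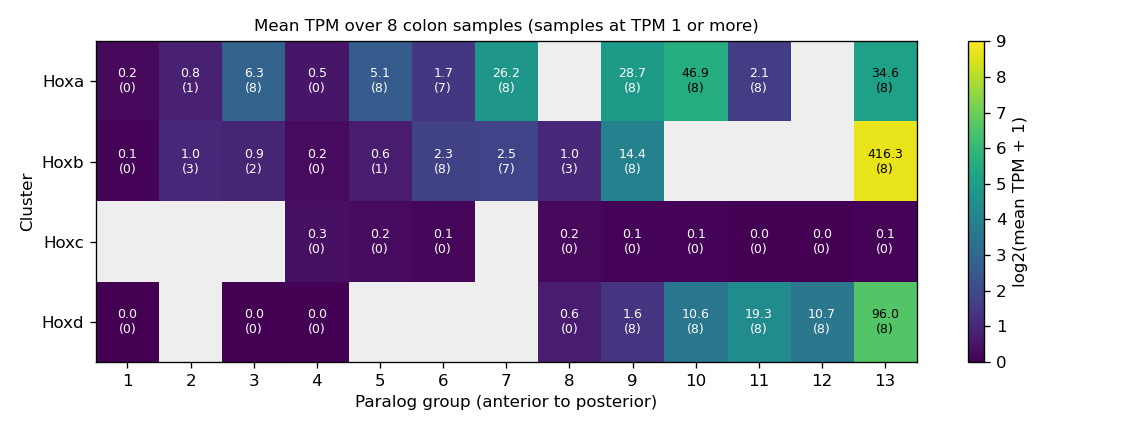
Mean TPM over the 8 samples for each of the 39 Hox genes, by cluster (rows) and paralog group (columns), with colour as log2(mean TPM + 1) and, in parentheses, the number of samples in which the gene reached a TPM of 1. Grey squares are cluster positions with no listed member. Hoxb13 (416 TPM) stood above every other square and the whole Hoxc row stayed under 1.

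Hoxb13 was the highest Hox gene by a wide margin. Its TPM was 434, 394, 445 and 358 in control samples 1 to 4 and 491, 438, 404 and 368 in Siglec-XII samples 1 to 4. The groups overlapped, and the lowest sample lay far above the highest value of any other member. With a mean of 416 TPM it ranked 329th of 51425 gene symbols and was 4.34 times Hoxd13, 12.0 times Hoxa13 and 28.9 times Hoxb9, its nearest annotated Hox neighbour. In the GENCODE M21 annotation of GRCm38, Hoxb13 (ENSMUSG00000049604) lies on chromosome 11 from 96194316 to 96197447 on the plus strand, and 74.0 kb separate it from Hoxb9. No other pair of neighbouring members is more than 15.8 kb apart. Genes of paralog groups 10 to 12 do not exist in the mouse b cluster.

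Hoxd13 and Hoxa13, the remaining expressed members of group 13, followed at lower levels. Hoxd13 TPM was 78.6, 117, 104 and 90.9 in the controls and 114, 105, 81.4 and 77.3 in the Siglec-XII samples. Hoxa13 TPM was 25.9, 38.9, 38.8 and 33.5 in the controls and 48.8, 42.5, 23.7 and 24.6 in the Siglec-XII samples. For both genes control sample 1 and Siglec-XII samples 3 and 4 were the 3 lowest, and the groups overlapped. Hoxc13 was at most 0.161 TPM. On the log2 scale the group differences (Siglec-XII minus control) were 0.06 for Hoxb13 (SE 0.11), -0.05 for Hoxd13 (SE 0.16) and -0.03 for Hoxa13 (SE 0.25), each within the spread between samples. With libraries centred on their medians the signs of Hoxd13 (0.16) and Hoxa13 (0.19) turned.

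Hoxa10 was the highest member of the a cluster, above Hoxa13 in all 8 samples. Its TPM was 38.1, 51.5, 48.7 and 41.9 in the controls and 54.7, 47.9, 44.6 and 47.8 in the Siglec-XII samples. Hoxa9 reached 25.0, 33.1, 32.1 and 25.1 against 34.3, 30.4, 26.8 and 23.2, and Hoxa7 reached 23.7, 33.4, 29.8 and 24.3 against 31.6, 27.6, 22.0 and 17.04. Hoxa11, between Hoxa10 and Hoxa13 on the chromosome, was low, at 1.96, 2.33, 2.43 and 1.73 TPM in the controls and 2.58, 2.37, 1.81 and 1.91 in the Siglec-XII samples. The level therefore did not fall or rise evenly along the a cluster. Of the 31-base windows in Hoxa11 transcripts, 33.9% also occur on the opposite strand in a transcript of another gene, the antisense gene Hoxa11os among them. The paper's methods name a stranded library kit, but the sources used here do not say whether reads were assigned by strand. The Hoxa11 level is therefore uncertain, while for Hoxb13, Hoxd13 and Hoxa10 the share of such windows was close to 0.

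Within the d cluster the level rose from group 9 to group 11, was lower at group 12 and highest at group 13. Hoxd11 TPM was 13.6, 20.4, 20.6 and 19.5 in the controls and 24.4, 19.65, 19.1 and 17.4 in the Siglec-XII samples. Hoxd12 TPM was 8.60, 12.8, 13.4 and 10.2 against 14.8, 12.7, 8.57 and 4.90, and Hoxd10 TPM was 8.02, 12.8, 10.98 and 10.5 against 11.8, 10.8, 9.23 and 10.7. Hoxd12 and Hoxd10 could not be ordered, each being the higher in 4 samples. Control sample 1 was the lowest control for all 3 genes, and Siglec-XII sample 4 was the lowest Siglec-XII sample for Hoxd11 and Hoxd12. Hoxd9 lay just above the threshold, from 1.14 to 2.04 TPM, and Hoxd8 just under it, from 0.349 to 0.848 TPM.

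Other members of groups 1 to 9 that were on in every sample included Hoxb9, Hoxa3 and Hoxa5. Hoxb9 TPM was 12.6, 17.1, 15.4 and 15.2 in the controls and 18.0, 15.2, 12.7 and 9.11 in the Siglec-XII samples. Hoxa3 TPM was 5.02, 7.29, 7.72 and 6.12 against 7.89, 6.99, 4.80 and 4.61, and Hoxa5 TPM was 3.43, 6.37, 5.79 and 4.74 against 7.74, 4.65, 4.42 and 3.68. These 3 genes overlapped between the groups, and Siglec-XII sample 1 was the highest sample for each. Hoxa3 shares exons with a read-through gene (Gm28308), and 23.6% of its windows occur antisense, so its level is uncertain. The antisense share was also high for Hoxa7 (19.6%) and Hoxb3 (52.6%). Down the order of mean TPM, only Hoxb13 over Hoxd13, Hoxd13 over Hoxa10 and Hoxd10 over Hoxa3 were neighbours whose ranges over the 8 samples did not overlap.

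**Figure D2:**
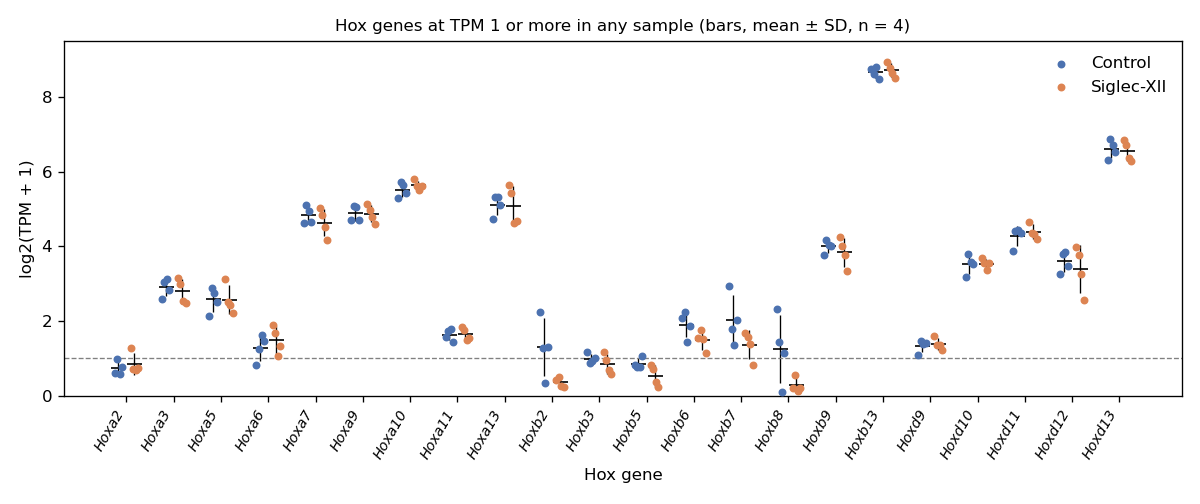
log2(TPM + 1) of each Hox gene that reached a TPM of 1 in any sample (x axis, by cluster and paralog group), with 1 point per sample, the mean ± SD of each group (n = 4) as bars and the TPM threshold of 1 as a dashed line. The groups overlapped in every gene shown, and Hoxb2, Hoxb7 and Hoxb8 spread most among the controls.

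Hoxb8, Hoxb2 and Hoxb7 varied most among samples. Hoxb8 TPM was 3.96, 1.72, 0.0771 and 1.21 in control samples 1 to 4 and 0.145, 0.478, 0.0858 and 0.162 in Siglec-XII samples 1 to 4. Hoxb2 TPM was 3.74, 1.44, 0.2745 and 1.49 against 0.330, 0.413, 0.203 and 0.185, and Hoxb7 TPM was 6.67, 2.46, 1.55 and 3.10 against 2.21, 1.98, 1.605 and 0.782. Control sample 1 was the highest for all 3, control samples 2 and 4 came next, and control sample 3 lay within the Siglec-XII range for Hoxb2 and Hoxb7 and below every Siglec-XII sample for Hoxb8, so the groups overlapped. Of the Hoxb2 windows 26.5% occur antisense (Hoxb3os lies there), which leaves its level uncertain, while that share was close to 0 for Hoxb8. Over the 8 samples the SD of log2(TPM + 1) was 0.80 for Hoxb8, 0.72 for Hoxb2 and 0.61 for Hoxb7, against a median of 0.24 for the 15 genes on in all samples and 0.26 for all genes tested. Hoxb6, between Hoxb7 and Hoxb5, was at 3.22, 3.70, 1.70 and 2.68 TPM in the controls and at 1.895, 2.36, 1.85 and 1.20 in the Siglec-XII samples, which overlapped.

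The same samples led in members that stayed under the threshold. Hoxc4, the highest Hoxc gene, had its largest values in control samples 1 and 4 (0.767 and 0.607 TPM) and at most 0.260 in the other 6. Hoxb4 was highest in control sample 1 (0.586 TPM) and at most 0.231 elsewhere. Hoxb5 crossed a TPM of 1 in control sample 4 alone (1.10), Hoxb3 in control sample 1 and Siglec-XII sample 1 (1.26 in both), and Hoxa2 in Siglec-XII sample 1 alone (1.44). Hoxa6 was on in 7 samples, at 0.756, 1.39, 2.09 and 1.73 TPM in the controls and 2.73, 2.18, 1.09 and 1.52 in the Siglec-XII samples.

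The variable Hoxb genes were set against the squamous markers. The mean log2(TPM + 1) of the 6 squamous markers was 9.78, 7.34, 6.97 and 9.42 in control samples 1 to 4 and 7.26, 8.59, 6.13 and 6.39 in Siglec-XII samples 1 to 4. Over the 8 samples Hoxb7 followed it with Pearson's r = 0.83 (exact permutation P = 0.0032) and Spearman's rho = 0.86 (exact permutation P = 0.0107). Hoxb2 followed it with r = 0.80 (exact permutation P = 0.012) and rho = 0.95 (exact permutation P = 0.0011), and Hoxb8 with r = 0.77 (exact permutation P = 0.0205) and rho = 0.81 (exact permutation P = 0.0218). None of these r passed adjustment over all genes compared, the Benjamini-Hochberg values of the exact permutation tests being 0.0925, 0.213 and 0.298. Without the 2 samples farthest from the median of the squamous mean, r was 0.56 for Hoxb7, 0.35 for Hoxb2 and 0.40 for Hoxb8. The size of Pearson's r therefore rests largely on those samples. The rank order of Hoxb2 among the remaining samples stayed close to that of the squamous mean. In both, Siglec-XII sample 2 and control sample 2 were highest and Siglec-XII samples 3 and 4 lowest. The order was less close for Hoxb7 and Hoxb8. Control sample 2 held Hoxb8 at 1.72 TPM with a squamous mean of 7.34, close to the 7.26 of Siglec-XII sample 1, where Hoxb8 was at 0.145 TPM. Of the 17 Hox genes that passed the filter described below, Hoxb7 was the 1 member with a positive r at an exact permutation P of 0.05 or less, beside 9.9% of 13158 genes, and no member was negative, beside 1.06%. With libraries centred on their medians 1 of the 17 was positive and 7 were negative at that limit, so the sign count depends on the scaling. At an adjusted P of 0.05 or less there was no member, beside 2.2% of those genes. This comparison was chosen after the values were seen, and the part of squamous tissue in the Hox differences was not tested.

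**Figure D3:**
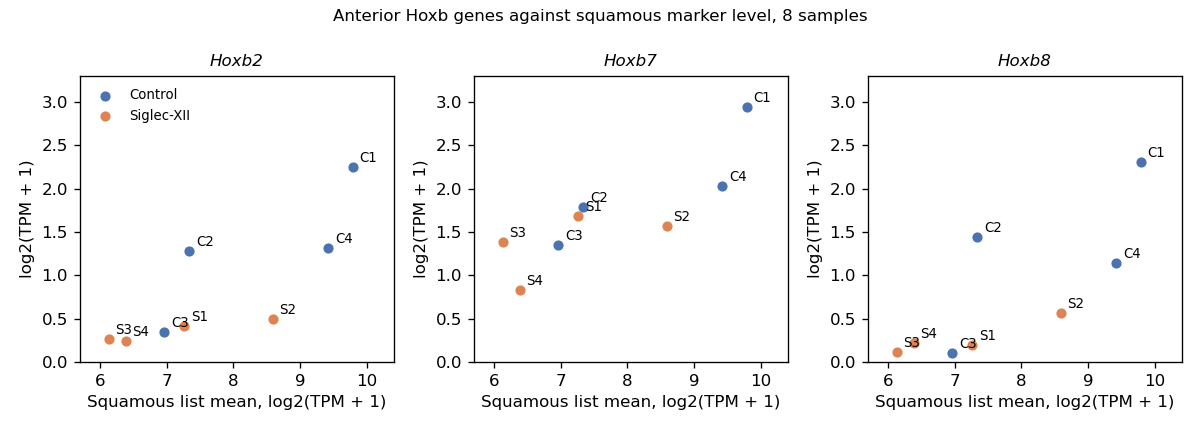
log2(TPM + 1) of Hoxb2, Hoxb7 and Hoxb8 (y axes) against the mean log2(TPM + 1) of the 6 squamous markers (x axis), with 1 point per sample, labelled C (control) or S (Siglec-XII) and its number. Control sample 1 was highest on both axes in each panel, and control sample 2 lay above Siglec-XII sample 1 in Hoxb2 and Hoxb8 at nearly the same squamous mean.

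Among all genes that passed the filter, those most like Hoxb8 over the 8 samples were Fam220a (r = 0.99), Gabrp (r = 0.99), Plcd3 (r = 0.99), Upk3bl (r = 0.98) and Cbr2 (r = 0.97). Hoxb2 and Hoxb8 themselves had r = 0.99 with each other. The TALE cofactor Meis2 had r = 0.97 with Hoxb8 and 0.98 with Hoxb2. The group 13 genes had no such likeness, Hoxb8 having r = -0.15 with Hoxb13, -0.17 with Hoxa13 and -0.14 with Hoxd13. These r describe 8 points that share libraries and their scaling, and the genes were chosen after their values were seen.

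Hoxb8 is shown with sequence because it had the largest SD of the members and 2 of its known regulatory inputs can be read from sequence. The microRNA miR-196a, encoded between Hoxb13 and Hoxb9 and again in the c cluster, is known to pair almost fully with Hoxb8 mRNA and to direct its cleavage. Mature sequences are from RefSeq (GRCm38.p6), with the seed, bases 2 to 8, in capitals. Both microRNAs share the seed.
mmu-miR-196a-5p: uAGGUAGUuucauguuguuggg
mmu-miR-196b-5p: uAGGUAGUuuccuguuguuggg
The best matching stretch in a Hoxb8 transcript of GENCODE M21 (bases 2208 to 2229 of 2635, after the stop codon, chromosome 11 from 96284888 to 96284909 on the plus strand, GRCm38) paired with 21 of the 22 bases of miR-196a-5p, and with all 22 when a G:U pair was allowed. Capitals mark the Watson-Crick pairs.
Hoxb8 site: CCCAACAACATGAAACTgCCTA
The G:U pair lies within the seed, so the Hoxb8 site holds no full Watson-Crick seed match. The best stretch in any of the other annotated Hox genes paired with 15 bases. Among those best stretches, only the ones of Hoxa7 and Hoxb7 (14 bases each) held a full seed match. Seed matches outside the best stretches were not searched. This is a description of the sequence and shows no binding in these samples.

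The Mir196a-1 hairpin row, 102 bases long, was at 7.28, 7.78, 7.77 and 6.59 log2(TPM + 1) in the controls and 7.80, 7.48, 7.15 and 7.05 in the Siglec-XII samples. Control sample 4 was the lowest and the groups overlapped. Libraries of long RNA do not measure the mature microRNA, and a level assigned to so short a transcript is uncertain. Rows for Mir10a, Mir10b, Mir196a-2, Mir196b and Mir615 were listed at 0 in all samples.

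Upstream sequence was available for 22 of the 39 Hox genes from RefSeq (GRCm38.p6). The 250 bases before the start of Hoxb8 (chr11:96281655-96281904, plus strand) are shown beside those of Hoxd13 (chr2:74667975-74668224, plus strand). The SD of Hoxd13 over the samples was 0.24 on the log2(TPM + 1) scale, the median of the Hox genes on in all samples. Capitals mark matches on either strand to 3 motifs, and matches can overlap. The Cdx motif was searched as TTTATG. For posterior Hox proteins the letters searched were CAATAAA. The TATA motif was searched as TATAAA.
Hoxb8: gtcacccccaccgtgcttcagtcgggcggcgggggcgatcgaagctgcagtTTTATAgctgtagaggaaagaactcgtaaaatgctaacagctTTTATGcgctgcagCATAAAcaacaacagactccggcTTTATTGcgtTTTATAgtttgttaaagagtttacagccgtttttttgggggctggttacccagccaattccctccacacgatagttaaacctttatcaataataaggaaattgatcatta
Hoxd13: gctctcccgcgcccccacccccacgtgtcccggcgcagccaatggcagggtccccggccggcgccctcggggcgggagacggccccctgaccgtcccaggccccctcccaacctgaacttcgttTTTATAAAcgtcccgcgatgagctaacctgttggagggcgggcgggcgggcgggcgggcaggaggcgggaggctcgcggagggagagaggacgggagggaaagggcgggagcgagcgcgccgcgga
Hoxb8 held 2 matches to TTTATG, 1 to CAATAAA and 2 to TATAAA. Hoxd13 held 2 overlapping matches to TATAAA and none to the others. Of the 22 Hox genes, 5 held TTTATG, 1 held CAATAAA and 4 held TATAAA, whereas 10.8%, 4.11% and 12.3% of 32536 upstream windows of the same length held them. No factor binding was measured.

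The question of position along the colon was asked first within the Hox genes. The share of summed Hox TPM held by groups 10 to 13 was 86.5%, 85.0%, 87.0% and 85.8% in control samples 1 to 4 and 86.9%, 87.4%, 88.1% and 89.4% in Siglec-XII samples 1 to 4. Its mean was 86.1% ± 0.899 (SD, n = 4) in the controls and 87.9% ± 1.07 (SD, n = 4) in the Siglec-XII samples, a difference of 1.86 percentage points. Siglec-XII sample 4 was the highest, and control sample 3 lay above Siglec-XII sample 1, so the groups overlapped. The mean paralog number weighted by TPM was 11.9 ± 0.0737 (SD, n = 4) in the controls and 12.0 ± 0.0449 (SD, n = 4) in the Siglec-XII samples, and ran from 11.8 to 12.1 over all 8. Hoxb13 alone held from 51.5% to 61.7% of summed Hox TPM, so both measures rest largely on that gene. No test was made of these sums over members.

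**Figure D4:**
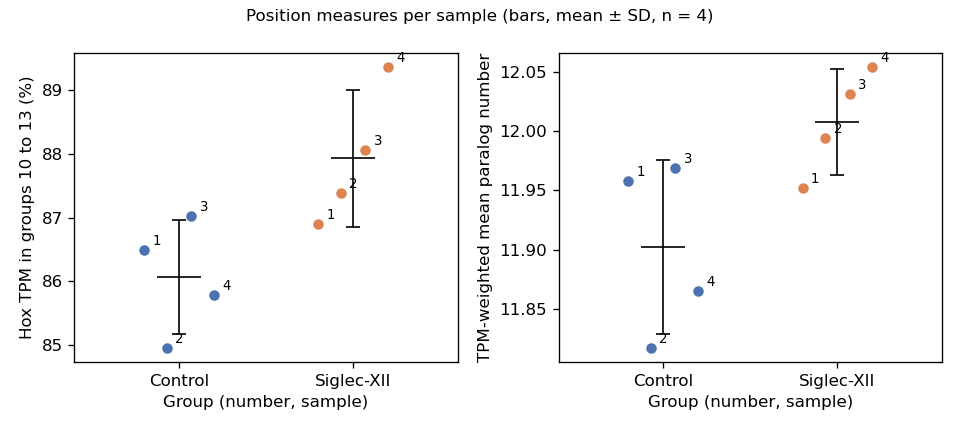
Share of summed Hox TPM in paralog groups 10 to 13 (left, percent) and TPM-weighted mean paralog number (right) in each sample, with the sample number beside its point and the mean ± SD of each group (n = 4) as bars. The axes do not start at 0. Shares ran from 85.0% to 89.4% and the groups overlapped in both panels.

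The weighted mean paralog number was also taken within clusters. It ran from 9.33 to 9.56 in the a cluster, from 12.6 to 12.8 in the b cluster and from 12.3 to 12.4 in the d cluster. The group difference was 0.08 in the a cluster, 0.13 in the b cluster and -0.04 in the d cluster, so the clusters did not lean one way. Ratios of a group 13 gene to a more anterior member of its cluster were also compared. The log2 of Hoxb13 over Hoxb9 lay from 4.52 to 5.34, log2 of Hoxd13 over Hoxd10 from 2.85 to 3.29 and log2 of Hoxa13 over Hoxa10 from -0.96 to -0.17. In the last of these Siglec-XII samples 3 and 4 (-0.91 and -0.96) stood below the other 6 samples, which lay from -0.56 to -0.17, while Siglec-XII samples 1 and 2 were the highest, at -0.17 each. No sample lacked a posterior gene that the others had on.

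Markers outside the Hox genes gave a second reading of position. Of 8 distal colon epithelium markers, 7 had a row and all 7 were on in all 8 samples, and of 6 proximal colon and cecum markers 4 were on in all 8. Scnn1b, a subunit of the epithelial sodium channel typical of distal colon, was at 3.22, 3.07, 3.32 and 2.94 log2(TPM + 1) in the controls and 3.44, 3.76, 3.56 and 3.58 in the Siglec-XII samples, and the groups did not overlap. Its difference was 0.45 (SE 0.13, limma adjusted P = 0.515), so it did not pass adjustment over all genes. It was the only one of the 12 tested markers of both lists at an unadjusted P of 0.05 or less, beside 8.87% of all genes, and it was no longer at that limit without control samples 1 and 4. Ang4, an antimicrobial ribonuclease on the proximal list, varied most, from 0.632 TPM in Siglec-XII sample 1 to 18.8 TPM in control sample 4, and overlapped between the groups. Sycn (3701 to 5861 TPM) and Mptx1 (2155 to 4170 TPM), both on the proximal list, were high in every sample. Most of 10 small intestine markers were near 0, with 3 (Fabp6, Fabp2 and Rbp2) on in all samples and none at an unadjusted P of 0.05 or less.

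The group comparison was fitted by limma over the 13164 genes that reached a TPM of 1 in 4 or more samples, of which 17 were Hox genes. The other 22 members did not pass this filter, Hoxb8 and Hoxb2 among them. No Hox gene was called at an adjusted P of 0.05 or less, beside 0.038% of all genes tested, and adjusted P lay from 0.515 to 0.991 over the 17. None was at an unadjusted P of 0.05 or less, beside 8.87% of all genes, and none of the 17 had groups that did not overlap, beside 5.11%. Among members under the filter, Hoxb1 did not overlap but was at most 0.109 TPM. Differences were below 0 for 10 of the 17 members and above 0 for 7, with a median of -0.01 against -0.15 over all genes tested. That split depends on the scaling: 15 of the 17 were above 0 with median centring (median 0.20, against 0.06 over all genes) and 14 with quantile normalization (median 0.13, against 0.02).

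**Figure D5:**
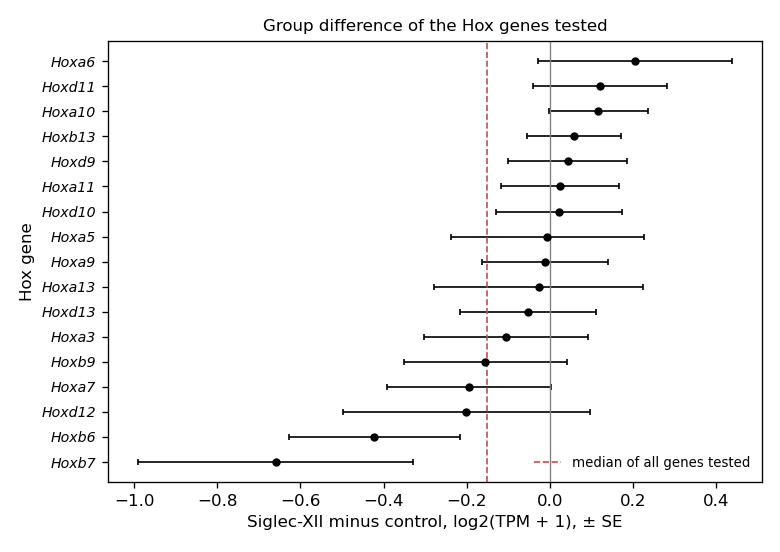
Siglec-XII minus control in log2(TPM + 1), ± SE from limma, for the 17 Hox genes tested (y axis, sorted). The dashed line is the median of all 13164 genes tested (-0.15). Hoxb7 (-0.66) and Hoxb6 (-0.42) lay farthest below 0 and neither passed the test.

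Among the 17 members tested, Hoxb7 had the largest difference, -0.66 (SE 0.33, limma adjusted P = 0.515). Hoxb6 followed at -0.42 (SE 0.21, limma adjusted P = 0.515). On the other side Hoxa6 stood at 0.20 (SE 0.23), Hoxd11 at 0.12 (SE 0.16) and Hoxa10 at 0.12 (SE 0.12). Without control samples 1 and 4, the 2 with the most squamous RNA, the difference of Hoxb7 was -0.20 and that of Hoxb6 -0.35. With no filter on low values, Hoxb8 differed by -0.98 (SE 0.42) and Hoxb2 by -0.94 (SE 0.36), both with a limma adjusted P of 0.682.

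Hox levels were also set against the amount of other tissue in each piece. In bulk RNA, fewer cells of a type and less RNA per cell cannot be told apart. The mean of 12 colon epithelium markers was lowest in control sample 1 (8.63) and Siglec-XII samples 3 and 4 (8.63 and 8.57), and lay from 8.85 to 9.09 in the other 5. Hoxd13 followed it with r = 0.97 (exact permutation P = 0.00067) and rho = 0.90 (exact permutation P = 0.0046), and Hoxa3 with r = 0.97 (exact permutation P = 0.0019) and rho = 0.81 (exact permutation P = 0.0218). Hoxb13 had a weaker relation, with r = 0.38 (exact permutation P = 0.345) and rho = 0.36 (exact permutation P = 0.389). Hoxb6 was alike, with r = 0.35 (exact permutation P = 0.387) and rho = 0.33 (exact permutation P = 0.428). Hoxb7 had r = -0.03 (exact permutation P = 0.949) and rho = 0.07 (exact permutation P = 0.882). Hoxa6 (r = 0.65, exact permutation P = 0.0834) and Hoxa10 (r = 0.63, exact permutation P = 0.099) also lay outside a P of 0.05. Of the 17 members, 12 had a positive r at P of 0.05 or less by exact permutation, beside 42.6% of 13152 genes, and none a negative one, beside 1.98%. At an adjusted P of 0.05 or less there were 8 members, beside 33.8% of those genes, so a large share of the transcriptome moved the same way. With libraries centred on their medians no member passed adjustment, and r was 0.92 for Hoxd13. Without the 2 samples farthest from the median of the epithelial mean r was 0.94 for Hoxd13 and 0.93 for Hoxa3, and no member passed adjustment over 6 samples.

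Smooth muscle content was compared in the same way. The mean of 10 smooth muscle markers was 5.12, 4.83, 5.36 and 5.05 in control samples 1 to 4 and 4.80, 4.65, 4.74 and 3.81 in Siglec-XII samples 1 to 4, the last far below the others. Of the 17 members that passed the filter, none had a positive r with it at an exact permutation P of 0.05 or less, beside 18.9% of 13155 genes, and none a negative one, beside 2.34%. Hoxb5, under the filter, had r = 0.76 (exact permutation P = 0.0302, adjusted P = 0.232) and rho = 0.69 (exact permutation P = 0.0694). No member passed adjustment, and neither did any of those genes (0.0%). Transcription factors of gut mesenchyme (Foxf1, Foxf2, Nkx2-3, Hand1, Hand2, Tcf21, Osr1 and Barx1) had means under 1 TPM, with Barx1 listed at 0.

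Of the partners and regulators of Hox genes, several were lower in Siglec-XII samples at an unadjusted P only. Among 9 TALE cofactors 7 were tested, and 3 were lower and none higher at an unadjusted P of 0.05 or less by limma, beside 8.87% of all genes in either direction. Meis2 was at 3.62, 2.71, 1.40 and 2.65 log2(TPM + 1) in the controls and 1.74, 1.87, 1.17 and 1.07 in the Siglec-XII samples, a difference of -1.13 (SE 0.42). Control sample 3 lay within the Siglec-XII range. Both Meis2 and Meis1 moved with the squamous keratin Krt5 (r = 0.93 for each over the 8 samples, with rho = 0.90 for Meis2 and 0.93 for Meis1). With the squamous keratin Krt14 r was lower, 0.80 for Meis2 and 0.84 for Meis1, with the same rho. The part of squamous tissue in the difference of Meis2 and Meis1 was not tested. Meis1 differed by -0.81 (SE 0.34), while Pbx2 was the highest of the list (23.2 TPM) and did not pass. The adjusted P of limma was 0.515 for Meis2 and for Meis1, beside the same 0.038% of all genes called.

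Among 15 upstream and chromatin regulators 13 were tested, and 1 was lower and none higher at an unadjusted P of 0.05 or less, a share near the 8.87% of all genes. That gene was Cbx2, a Polycomb subunit that helps to keep Hox genes silent, at -0.39 (SE 0.15, limma adjusted P = 0.515). Rarg, a retinoic acid receptor, lay just outside that limit (-0.86, SE 0.38) and was highest in control samples 1 and 4. Cdx1 was the highest of the list, at 358 TPM, Cdx2 was at 8.29 TPM and Cdx4 was listed at 0. The Polycomb genes Ezh2, Eed and Suz12 had means from 12.2 to 25.96 TPM.

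Noncoding and flanking genes of the clusters were read beside the coding genes. Of 20 listed, 18 had a row and 7 were tested, with none at an unadjusted P of 0.05 or less. Hoxa11os, antisense to Hoxa11, had a mean of 55.6 TPM, against 2.14 for Hoxa11. Hottip, which lies next to Hoxa13, was at 3.79, 4.51, 4.23 and 4.22 log2(TPM + 1) in the controls and 4.43, 4.42, 3.81 and 3.70 in the Siglec-XII samples, where control sample 1 and Siglec-XII samples 3 and 4 were again the 3 lowest. Hotair, transcribed from the c cluster, was at most 0.0191 TPM. Evx2, next to Hoxd13, was on in all samples at 1.27 to 2.58 TPM, and Evx1, beyond Hoxa13, had a mean of 0.669 TPM.

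Other lists were read for the make-up of the pieces. At an unadjusted P of 0.05 or less by limma, a limit that 8.87% of all genes met, 5 of 9 tested smooth muscle markers were lower in Siglec-XII samples (Myh11, Des, Cnn1, Smtn and Synpo2, from -0.78 to -0.64), as were 1 of 2 tested enteric neuron and glia markers (Snap25) and the 1 tested endothelial marker (Pecam1). None of the 6 fibroblast markers, the 1 hematopoietic marker, the 6 squamous markers or the 12 colon epithelium markers tested was at that limit. No member of any list passed adjustment. The median difference of the squamous list was -1.45, with groups that overlapped.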

How the data were processed

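The authors quantified reads with kallisto and deposited log2(TPM + 1) per gene (52143 rows) for the 8 samples, with no adjustment between samples. The submitters' processing notes name kallisto 0.45.0 and GRCm38, whereas the paper's methods name another kallisto version and a human reference. Of the deposited gene identifiers, 98.3% are in GENCODE M21. The labels name a total RNA kit and the methods an mRNA kit. TPM summed to 1000000 in each sample, so depth is unknown. Precision rests on having 4 samples a group, which may not be 4 separate animals.

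Members and marker lists were chosen with earlier results of these data known. Genes that reached a TPM of 1 in 4 or more samples (13164) entered a linear model in limma 3.58.1 (R 4.3.3; eBayes, trend on), and P values were adjusted over all of them by Benjamini-Hochberg. Differences use a pseudocount of 1, which understates changes of low genes. The fit was tested on simulated data of 13164 genes, where it found 174 of 200 altered genes, and 10 of its 184 calls were wrong. Altered genes were shifted by 1 to 3 on the log2 scale, more than any Hox group difference given here. Each gene was drawn independently, with no shift shared by a library. The simulation therefore does not show how often changes as small as those of the Hox genes would be found. Correlations over the 8 samples used all 40320 pairings (exact permutation, two-sided) in Python 3.11.15, for 3 marker lists, each adjusted over all genes tested together with the Hox genes on in any sample. The design had planned adjustment over the Hox genes alone, which was replaced. Positions, 31-base windows shared between transcripts and the miR-196a site used GENCODE M21, in which 1 Hox member (the Hoxd4 row) has no gene entry, and RefSeq gave microRNAs and upstream windows.

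Values in every sample were given for members of groups 10 to 13 that were on, the highest member of the a, b and d clusters and the 10 highest members. Hoxc4, the highest Hoxc gene, and some members near a TPM of 1 were given by single values, limits or ranges. Lists were given by counts, with members at an unadjusted P of 0.05 or less and the highest, except that 1 cofactor is not reported here. Hoxb4, Hoxb1 and the genes most like Hoxb8 were named after their values were seen. As alternatives, the filter was raised to a TPM of 5 or dropped, the pseudocount lowered to 0.1, and quantile normalization, median centring and array weights were tried, as were the sample number as a block, thresholds of 0.5 and 2, other weights and each sample left out.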

Additional observations from a re-analysis of the deposited data

Results flagged for a closer look

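In 54 groups of 4 samples examined, 3 values lay far from the other 3 samples of their group (Dixon's ratio of the gap to the range above its 95% limit for 4 samples), and chance gives about 1 in 20, or 2.7 here. Hoxa2 in Siglec-XII sample 1 (ratio 0.895) stood at 1.29 log2(TPM + 1), above 0.67 to 0.74 in the other 3. Hoxd11 in control sample 1 (ratio 0.868) stood at 3.87, below 4.36 to 4.43. The smooth muscle mean in Siglec-XII sample 4 (ratio 0.849) stood at 3.81, below 4.65 to 4.80.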

How the results depend on the processing

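No Hox gene passed at an adjusted P of 0.05 (limma) under any of 16 alternatives. The count at an unadjusted P of 0.05 or less rose from 0 to 4 with no filter (Hoxb8, Hoxb2, Hoxb1 and Hoxc5), 2 with quantile normalization (Hoxa10 and Hoxd11), 3 with median centring (those and Hoxa6) and 1 with the replicate block (Hoxb7), and ran from 0 to 2 with 1 sample left out (2 without control sample 3, 1 without Siglec-XII sample 2). Same-numbered samples did not deviate together over the genes tested (r from -0.20 to 0.10), which cannot exclude a pairing that the labels do not name. The replicate block changed no other count and left the position differences at 1.86 and 0.11. Distal and proximal markers went from 1 to 2 with quantile normalization, 5 with array weights and 2 (Mptx1 and Sycn, with Scnn1b lost) without control samples 1 and 4, an alternative chosen after seeing the data, and ran from 1 to 2 with 1 sample left out. Hoxd13 turned to 0.043 with quantile normalization, 0.16 with median centring and 0.045 with array weights, and Hoxa13 to 0.13, 0.19 and 0.21. With 1 sample left out Hoxb13 ran from -0.014 to 0.12, Hoxd13 from -0.15 to 0.039 and Hoxa13 from -0.21 to 0.13, whereas Hoxb7 (-0.89 to -0.36) and Hoxb6 (-0.58 to -0.31) kept their sign. The group difference in the share of groups 10 to 13 was 3.70 percentage points with log2 weights and 3.50 without the highest gene of each cluster, and ran from 1.38 to 2.20 with 1 sample left out. That of the mean paralog number was 0.27, 0.22 and 0.08 to 0.13. Both alternatives give more weight to low genes. The count of genes on in every sample was 17 at a threshold of 0.5, 12 at 2 and 15 to 16 with 1 sample left out. Hox genes correlated with colon epithelium at an adjusted P fell from 8 to 0 with median centring and to 0 without the 2 farthest samples, and ran from 0 to 7 with 1 sample left out (0 without Siglec-XII sample 4, 5 without control sample 3, control sample 4 or Siglec-XII sample 2). Those with smooth muscle or squamous markers were 0 under every alternative run. Except where a setting leaves fewer samples or genes, the cause of these changes was not tested. Depth is unknown, so members near a TPM of 1 cannot be given a counting error.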
